A study of Homo sapiens with 6 samples.

Results

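The aminoacyl-tRNA synthetases and their scaffold proteins were followed as a group of 38 genes, out of 13885 in the table. They comprise 19 cytosolic enzymes, 16 mitochondrial enzymes, whose symbols end in 2, and 3 non-enzymatic proteins of the multisynthetase complex. The genes were chosen by name, not by their values, and all 38 were found in the authors' deposited table. The annotation writes 17 of the cytosolic enzymes without the final 1 (AARS for AARS1), and the current symbols are used here. The cells were BE(2)-C, a human neuroblastoma line grown as an established culture. In the first of 2 groups, 3 samples had been transfected with an siRNA against PCIF1, and in the second, 3 samples had received a scrambled siRNA, for 24 h in either case. All 6 samples were then differentiated with ATRA (all-trans retinoic acid) at 10 µM over 4 days, with the medium renewed every 24 h, so that both groups carry ATRA and the transfection. PCIF1 is the methyltransferase that adds the m6Am mark beside the mRNA cap, and the labels give the genotype of every sample as WT. The labels do not say whether the 3 samples of a group were separate cultures, so the errors below may be technical.

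The values come from a DESeq2 comparison made by the authors, which holds 1 fold change and 1 standard error (SE) per gene and no value per sample. The header does not give the direction of the fold changes. It was read as siPCIF1 over siScramble from PCIF1 itself, at -0.82 (SE 0.19) on the log2 scale per the authors' deposited table, or 56.6% of the siScramble level (95% interval 43.7 to 73.4%). The name of the table, taken literally, would turn every sign below. Since PCIF1 set the direction, its sign is no check of the siRNA. The authors' deposited table held 8 of 8 adrenergic neuroblastoma markers, at mean normalised counts of 73.2 to 4718. Of 6 markers of other cells, PTPRC, PECAM1, HBB and ALB were not in it, and EPCAM and COL1A1 had means of 13.9 and 21.5.

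Each synthetase joins 1 amino acid to its tRNA, the step that fixes the meaning of the genetic code. The cytosol and the mitochondrion mostly use separate sets, both encoded in the nucleus. GARS1 and KARS1 are exceptions, as each gene serves both compartments. In the cytosol of animal cells several synthetases are held together with AIMP1, AIMP2 and EEF1E1 (also called AIMP3) in the multisynthetase complex. Many cytosolic synthetase genes are transcribed through ATF4, the transcription factor of the integrated stress response, which answers amino acid shortage and unfolded protein.

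The cytosolic enzymes split into members that fell, members that rose and members that did not pass the test. At a DESeq2 adjusted p of 0.05 per the authors' deposited table, 8 of 19 fell and 3 rose. By the same rule 17.7% of all genes fell, 16.3% rose and 34.0% did either. The cytosolic enzymes had a median mean of 1374 normalised counts, and of all genes with means of 1000 or more 31.8% fell and 14.5% rose. In a culture measured in bulk, fewer cells of a kind and less RNA per cell cannot be told apart. The median log2 fold change of the 19 cytosolic genes was -0.27 per the authors' deposited table, against 0.0059 for all genes. Of the 16 mitochondrial enzymes, 1 fell and 1 rose per the authors' deposited table, with a median of -0.067. Of the 3 scaffold genes, 1 fell and 1 rose per the authors' deposited table.

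**Figure D1:**
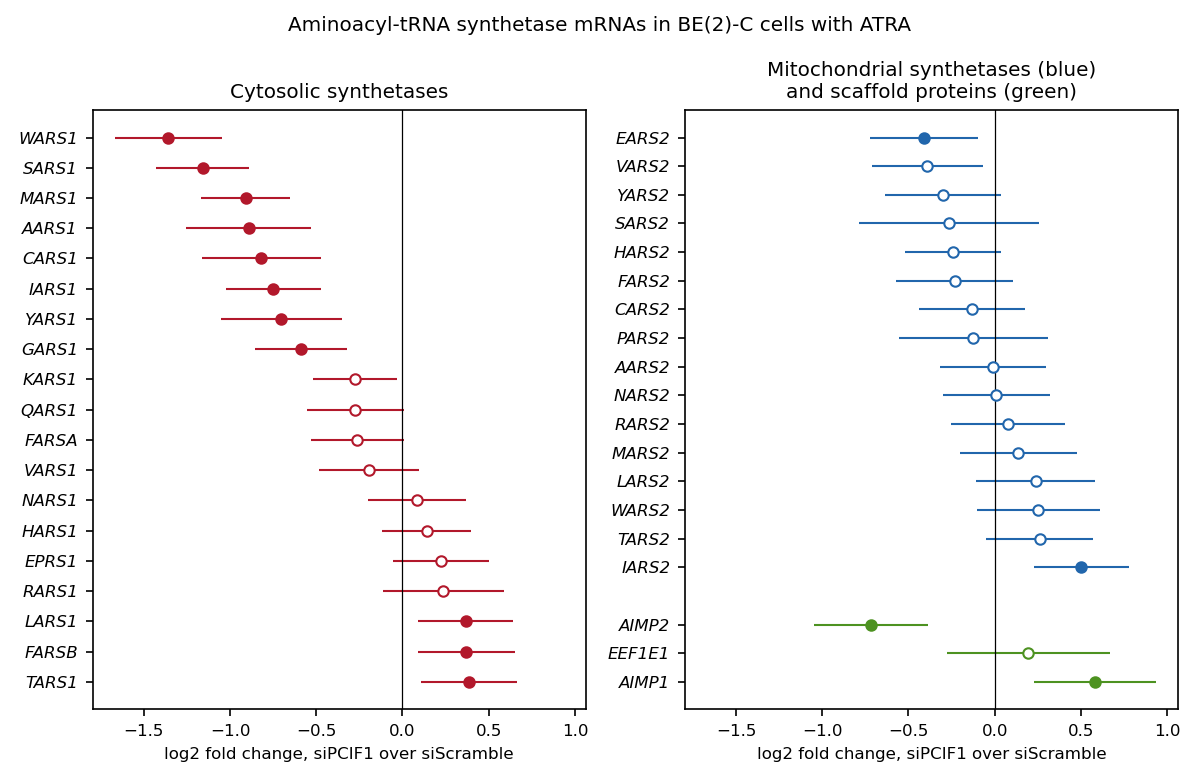
Log2 fold change (siPCIF1 over siScramble) of each member per the authors' deposited table, with bars for the 95% interval from its SE. Cytosolic enzymes are red, mitochondrial enzymes blue and scaffold proteins green; filled points passed a DESeq2 adjusted p of 0.05. From WARS1 at -1.36 to GARS1 at -0.59 the first 8 cytosolic enzymes lie left of 0 and are filled, whereas the mitochondrial enzymes lie between -0.41 and 0.50 with 2 filled points.

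WARS1, which charges tRNA with tryptophan, had the largest change of the 38 members. In the authors' deposited table its log2 fold change was -1.36 (SE 0.16), or 39.0% of the siScramble level (95% interval 31.5 to 48.3%), with a DESeq2 adjusted p of 7.46e-16. A share of 1.19% of genes in the authors' deposited table lay lower (ENSG00000140105.17; chromosome 14, 100333788 to 100376805, GRCh38). SARS1, the seryl-tRNA synthetase, which also charges the selenocysteine tRNA with serine, came next at -1.16 (SE 0.14) per the authors' deposited table. That put SARS1 at 44.8% of the siScramble level (37.2 to 54.0%) with a DESeq2 adjusted p of 3.28e-15 per the authors' deposited table (ENSG00000031698.12; chromosome 1, 109213918 to 109238169). These 2 enzymes were the members that fell by more than 1 on the log2 scale per the authors' deposited table.

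MARS1, the methionyl enzyme that supplies both initiator and elongator tRNA, was at -0.91 (SE 0.13; DESeq2 adjusted p = 2.44e-10) per the authors' deposited table. It lies on chromosome 12 from 57475445 to 57517569 and overlaps the stress response gene DDIT3 on the opposite strand by 982 bases. DDIT3 fell by 1.63 (SE 0.18) per the authors' deposited table, and because no source used here states how strand was counted, reads from the shared bases cannot be told apart. AARS1, for alanine, was at -0.89 (SE 0.18; DESeq2 adjusted p = 1.61e-05) per the authors' deposited table (chromosome 16, 70252295 to 70289543). CARS1, for cysteine, was at -0.82 (SE 0.17; DESeq2 adjusted p = 3.52e-05) per the authors' deposited table (chromosome 11, 3000922 to 3057613). IARS1, for isoleucine, was at -0.75 (SE 0.14; DESeq2 adjusted p = 1.81e-06) per the authors' deposited table (chromosome 9, 92210207 to 92293756). Each of these 4 lay between 53.3 and 59.5% of the siScramble level per the authors' deposited table.

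YARS1, the tyrosyl enzyme, and GARS1, the glycyl enzyme of both compartments, had the smallest decreases that passed. YARS1 was at -0.70 (SE 0.18; DESeq2 adjusted p = 0.000634) per the authors' deposited table (chromosome 1, 32775237 to 32818153). GARS1 was at -0.59 (SE 0.14; DESeq2 adjusted p = 0.000137) per the authors' deposited table (chromosome 7, 30594681 to 30634033). Against an absolute log2 change of 0.3 rather than 0, the other 6 decreases passed and YARS1 and GARS1 did not, with 5.21% of all genes passing as lower and 3.87% as higher.

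A trend across the table ran with these values. The fold change had a slope of -0.020 on the log2 scale for each percent of GC in the main transcript, with length and level in the same linear fit. With that trend removed, 12.8% of all genes passed as lower and 12.4% as higher, and the same 8 cytosolic enzymes passed as lower. The median of the 19 was then -0.066, against -0.034 for the 16 mitochondrial enzymes and 0.026 for all genes. WARS1 was at -1.16 and GARS1 at -0.46, which remained the largest decrease and the smallest of the 8. When the Wald statistics were scaled to their robust SD of 2.44, WARS1 alone of the 8 passed, with 0.821% of all genes called lower and 0.151% higher. The shares of all genes that passed as lower and as higher were 12.1 and 10.7% at an adjusted p of 0.01, and 21.1 and 20.1% at 0.10. Among genes with means of 100 or more the shares were 22.2 and 19.5%, and after centring on the median 17.9 and 16.1%.

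TARS1, LARS1 and FARSB were the cytosolic enzymes that rose. TARS1, for threonine, was at 0.38 (SE 0.14; DESeq2 adjusted p = 0.0247) per the authors' deposited table (chromosome 5, 33440696 to 33469539). LARS1, the leucyl enzyme, which also serves as a leucine sensor for mTORC1, was at 0.37 (SE 0.14; DESeq2 adjusted p = 0.0297) per the authors' deposited table (chromosome 5, 146113038 to 146182660). FARSB, the beta subunit of the phenylalanyl enzyme, was at 0.37 (SE 0.14; DESeq2 adjusted p = 0.0329) per the authors' deposited table (chromosome 2, 222570536 to 222656337). They stood at 129 to 131% of the siScramble level per the authors' deposited table, and none of the 3 passed with the trend removed, when their adjusted p recomputed from the DESeq2 values was 0.0804 to 0.207. HARS1, for histidine, stood at 0.14 (SE 0.13; DESeq2 adjusted p = 0.435) per the authors' deposited table and at 0.33 with the trend removed, where it passed with an adjusted p of 0.0456 recomputed from the DESeq2 values.

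The other 7 cytosolic enzymes passed neither as deposited nor with the trend removed. KARS1, the lysyl enzyme of both compartments, was at -0.28 (SE 0.13; DESeq2 adjusted p = 0.0737), and QARS1, for glutamine, at -0.27 (SE 0.14) per the authors' deposited table. FARSA, the alpha subunit of the phenylalanyl enzyme, was at -0.26 (SE 0.14) and VARS1, for valine, at -0.20 (SE 0.15) per the authors' deposited table. NARS1, for asparagine, was at 0.084 (SE 0.15), the bifunctional EPRS1, for glutamate and proline, at 0.22 (SE 0.14) and RARS1, for arginine, at 0.24 (SE 0.18) per the authors' deposited table. A p that misses the threshold does not show that these enzymes were unaffected.

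The 2 subunits of the phenylalanyl enzyme lay apart. FARSA minus FARSB was -0.63 on the log2 scale, with a 95% interval of -1.02 to -0.24 from the SEs per the authors' deposited table. With the trend removed the difference was -0.17 (-0.56 to 0.22), an interval that includes 0. FARSA has a GC content of 61.4% and FARSB of 41.6%. The pair was singled out after its values were seen.

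Among the mitochondrial enzymes IARS2 rose and EARS2 fell. IARS2, for isoleucine, was at 0.50 (SE 0.14; DESeq2 adjusted p = 0.00196) per the authors' deposited table, or 142% of the siScramble level (chromosome 1, 220094102 to 220148041). With the trend removed IARS2 was at 0.42 and still passed, with an adjusted p of 0.0147 recomputed from the DESeq2 values. EARS2, which charges tRNA with glutamate, was at -0.41 (SE 0.16; DESeq2 adjusted p = 0.0354) per the authors' deposited table (chromosome 16, 23522014 to 23557731). With the trend removed EARS2 was at -0.37 and did not pass, with an adjusted p of 0.0757 recomputed from the DESeq2 values. VARS2 was near the threshold at -0.39 (SE 0.17; DESeq2 adjusted p = 0.0531) per the authors' deposited table, and it passed after centring on the median of all genes and when only genes with means of 100 or more were adjusted.

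The remaining 13 mitochondrial enzymes lay between -0.30 and 0.26 on the log2 scale per the authors' deposited table. On the low side were YARS2 at -0.30, SARS2 at -0.26, HARS2 at -0.24, FARS2 at -0.23, CARS2 at -0.13 and PARS2 at -0.12 per the authors' deposited table. AARS2, NARS2 and RARS2 were at -0.010, 0.010 and 0.078 per the authors' deposited table. On the high side were MARS2 at 0.14, LARS2 at 0.24, WARS2 at 0.25 and TARS2 at 0.26 per the authors' deposited table. SEs of the 16 ran from 0.14 to 0.27 per the authors' deposited table, with a median of 0.17, against a median of 0.14 for the cytosolic enzymes. SARS2, with the lowest mean of the 38 members at 27.1 normalised counts per the authors' deposited table, is uncertain, as 71.9% of the 50-base words of its main transcript also occur in transcripts of another gene.

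The scaffold genes went in opposite directions. AIMP2, which organises the multisynthetase complex, was at -0.72 (SE 0.17; DESeq2 adjusted p = 0.000181) per the authors' deposited table, or 60.8% of the siScramble level (chromosome 7, 6009245 to 6023834). AIMP1, which binds tRNA within the complex, was at 0.58 (SE 0.18; DESeq2 adjusted p = 0.00601) per the authors' deposited table, or 150% of the siScramble level (chromosome 4, 106315544 to 106349226). EEF1E1, which shares 33.9% of the 50-base words of its main transcript with other genes and is uncertain, was at 0.19 (SE 0.24; DESeq2 adjusted p = 0.571) per the authors' deposited table. AIMP1 minus AIMP2 was 1.30 (95% interval 0.82 to 1.78 from the SEs per the authors' deposited table), and 0.98 (0.50 to 1.46) with the trend removed. AIMP1 alone no longer passed with the trend removed, with an adjusted p of 0.0528 recomputed from the DESeq2 values, while AIMP2 did, with 0.00892. AIMP1 overlaps TBCK on the opposite strand, which rose by 0.46 (SE 0.17) per the authors' deposited table, and AIMP2 overlaps EIF2AK1, at 0.11 (SE 0.17).

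Enzymes for the same amino acid in the 2 compartments were set against each other in 17 pairs. EPRS1 and FARS2 each stand in 2 of these pairs, so the 17 are not all separate comparisons. For 6 pairs the 95% interval of the difference, cytosolic minus mitochondrial, lay below 0, for 3 above 0, and for 8 it included 0. The intervals take the SEs of the authors' deposited table as independent and are not adjusted for the number of pairs. How often such an interval leaves out 0 for other pairs of genes was not computed. By itself, an unadjusted DESeq2 p under 0.05 was reached by 5998 of 13885 genes in the authors' deposited table. The scaling of the statistics to their robust SD was not applied to the pairs, so these counts are a description. WARS1 minus WARS2 was -1.61 (-2.08 to -1.14) and IARS1 minus IARS2 was -1.25 (-1.64 to -0.86) from the authors' deposited table. For isoleucine the 2 enzymes passed the test in opposite directions, with IARS1 lower and IARS2 higher. MARS1 minus MARS2 was -1.05 (-1.47 to -0.62) and SARS1 minus SARS2 was -0.89 (-1.48 to -0.31) from the authors' deposited table. The serine pair is uncertain, as SARS2 had a mean of 27.1 normalised counts. In addition, 71.9% of the words of its main transcript also occur in transcripts of another gene. With fold changes estimated without shrinkage towards 0, SARS1 minus SARS2 was -0.86 (-1.64 to -0.081), an interval that comes closer to 0. AARS1 minus AARS2 was -0.88 (-1.36 to -0.41) and CARS1 minus CARS2 was -0.69 (-1.15 to -0.22) from the authors' deposited table. YARS1 fell and YARS2 did not pass, yet their difference of -0.40 (-0.89 to 0.084) from the authors' deposited table has an interval that includes 0.

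In the 3 pairs whose whole interval lay above 0, the cytosolic gene had the higher fold change. EPRS1 minus EARS2 was 0.63 (0.21 to 1.05), FARSB minus FARS2 was 0.60 (0.16 to 1.04) and HARS1 minus HARS2 was 0.38 (0.0014 to 0.76) from the authors' deposited table. Their companion pairs included 0, with EPRS1 minus PARS2 at 0.35 (-0.17 to 0.86) and FARSA minus FARS2 at -0.030 (-0.46 to 0.40). With the trend removed FARSB minus FARS2 was 0.33 (-0.11 to 0.77), so that 2 pairs stayed above 0. HARS1 and HARS2 lie head to head on chromosome 5 and their annotated ends share 437 bases on opposite strands. The 8 pairs whose interval includes 0 had differences of -0.40 to 0.35 from the authors' deposited table, with intervals reaching from -0.89 to 0.86, so that differences as large as some of those above are not excluded for them.

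**Figure D2:**
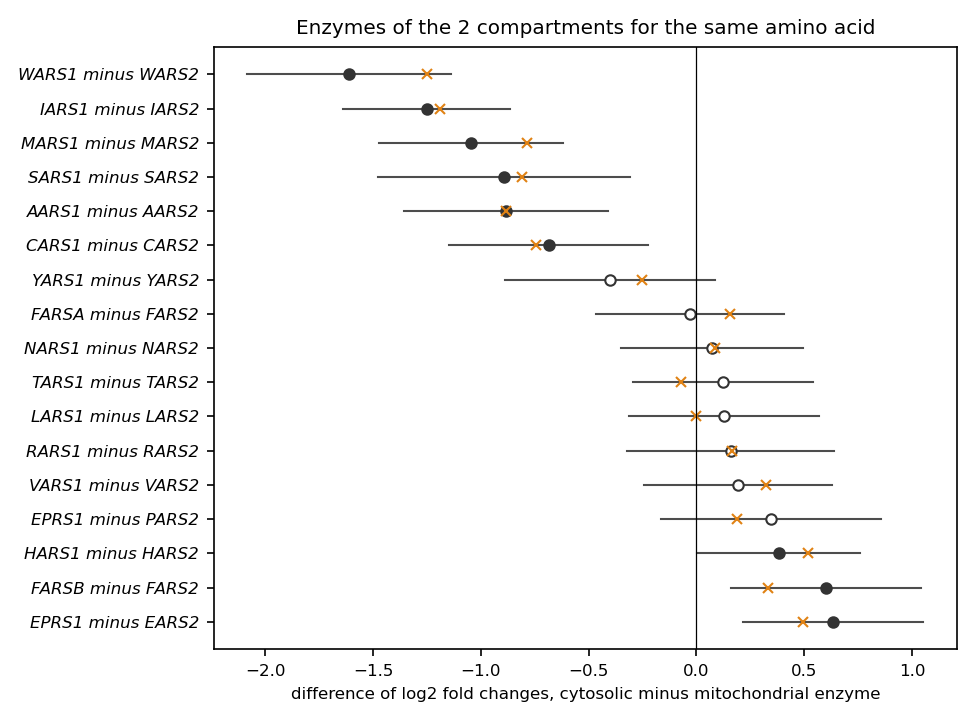
Difference of log2 fold changes for each pair, cytosolic minus mitochondrial enzyme, with the 95% interval from the SEs of the authors' deposited table. Filled points have an interval that leaves out 0, and orange crosses give the difference after the linear trend with GC content, length and level was taken out. The first 6 pairs, from WARS1 minus WARS2 to CARS1 minus CARS2, lie below 0 with their whole interval.

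The cytosolic enzymes that fell included the most abundant ones. Levels are given as the mean normalised count of the authors' deposited table per kb of main transcript, a mean over both groups. SARS1 stood at 4140 per kb, WARS1 at 2284, GARS1 at 1657, MARS1 at 1329, IARS1 at 1003 and AARS1 at 923 on this scale from the authors' deposited table. These are the 6 highest levels of the 19, and all 6 fell. The number 6 was set after the values were seen, since the next enzyme, KARS1 at 819 per kb, did not pass. YARS1 and CARS1, the other decreases, stood at 322 and 241 per kb, among the enzymes that did not fall. The 8 genes that fell held 73.9% of the summed level per kb of the 19 cytosolic enzymes. Mitochondrial enzymes stood at 13.2 to 175 per kb, below every cytosolic enzyme, whose lowest was NARS1 at 208.

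Abundant genes fell more often across the whole table as well. Of 646 genes at or above the level of AARS1, a limit taken from those 6 enzymes, 43.5% fell and 4.49% rose per the authors' deposited table by DESeq2, with a median log2 fold change of -0.29. The 6 abundant enzymes were at -0.59 to -1.36. They were cut off where the run of decreases ended, so their place below that median is not a separate finding. Across the 19 cytosolic genes Spearman's rho between level per kb and log2 fold change was -0.70, across the 16 mitochondrial genes 0.15 and across 13877 genes -0.22. These are descriptions over genes that share the same 6 libraries. The part of level in the decreases was not tested beyond the trend removal above, which holds a term for the mean.

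**Figure D3:**
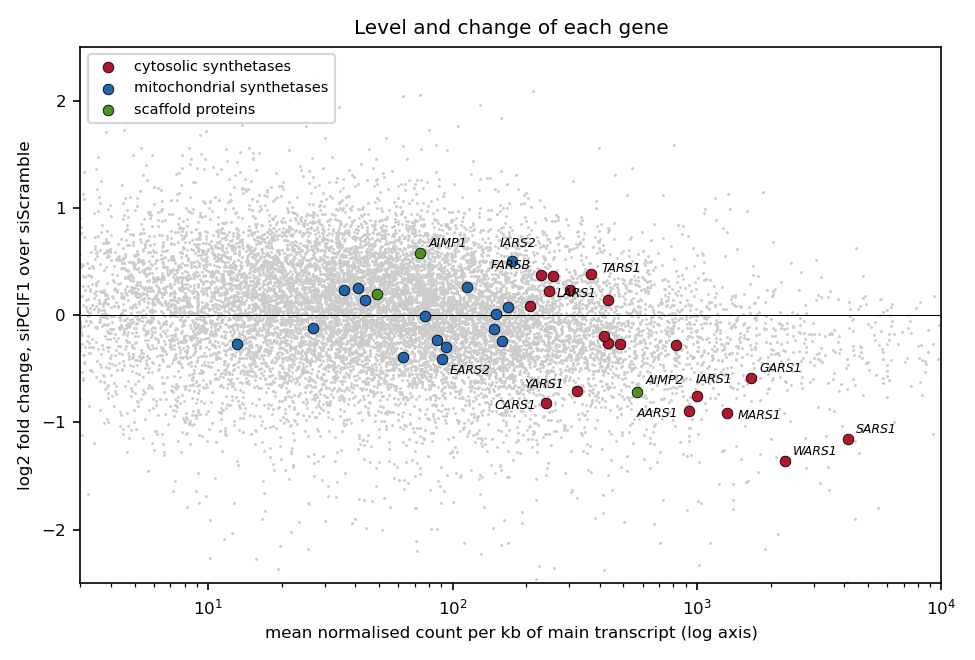
Log2 fold change (siPCIF1 over siScramble) against the mean normalised count per kb of main transcript on a log axis, from the authors' deposited table, for 13877 genes in grey and the 38 members in colour; 344 genes lie outside the axes. Members that passed a DESeq2 adjusted p of 0.05 are named. SARS1 and WARS1 sit at the lower right, and the mitochondrial enzymes sit to the left of the cytosolic ones, close to 0.

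The 8 cytosolic enzymes that fell all stood on a list of 13 that are commonly given as ATF4 targets. Of these 13, 8 fell and 2 rose per the authors' deposited table by DESeq2, with a median of -0.70, where 17.7% of all genes fell and 16.3% rose. Of the 6 cytosolic enzymes outside the list (FARSA, FARSB, HARS1, KARS1, QARS1 and RARS1), 0 fell and 1, FARSB, rose per the authors' deposited table, with a median of -0.061. KARS1 was the one of these 6 with an unadjusted DESeq2 p under 0.05 as lower, at 0.0278 per the authors' deposited table. Once the trend was removed, 8 of the 13 passed as lower and 0 as higher, and 0 of the 6 as lower and 1, HARS1, as higher, and the median of the 6 turned to 0.12. Of all genes 12.8% then passed as lower and 12.4% as higher. The list was drawn up with earlier results of these data known and is not independent evidence of its direction. Within the list EPRS1, LARS1, NARS1, TARS1 and VARS1 did not fall, at -0.20 to 0.38 per the authors' deposited table.

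The wider ATF4 axis fell with few exceptions. A list of 21 genes held ATF4, genes of amino acid synthesis and uptake, and others such as DDIT3, EIF2AK4 and VLDLR. Of these 21, 19 fell and 1 rose per the authors' deposited table by DESeq2, with a median of -1.07. Among all genes 17.7% fell and 16.3% rose. These 21 genes, too, were listed with earlier results of these data known. ATF4 itself was at -1.28 (SE 0.14) and SHMT2, the mitochondrial serine hydroxymethyltransferase, at -2.04 (SE 0.15) per the authors' deposited table. SLC3A2, the heavy chain of several amino acid transporters, was at -1.55 (SE 0.16) per the authors' deposited table. EIF2AK4, which encodes the kinase GCN2 that senses uncharged tRNA, was the member that rose, at 0.48 (SE 0.15), and VLDLR, at 0.33 (SE 0.14), did not pass per the authors' deposited table. The 8 synthetases that fell, at -0.59 to -1.36, lay largely above the median of that axis, with WARS1 and SARS1 below it.

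The multisynthetase complex and the structural classes gave further groupings of the cytosolic enzymes, to be read against the 17.7% of all genes that fell and the 16.3% that rose. Among genes with means of 1000 or more, 31.8% fell and 14.5% rose. Of 7 enzymes held in the multisynthetase complex, 2 fell (IARS1 and MARS1) and 1 rose per the authors' deposited table, with a median of -0.27. Of 12 enzymes outside it, 6 fell and 2 rose per the authors' deposited table, with a median of -0.43. Synthetases form 2 structural classes with unrelated catalytic folds. Of 9 cytosolic class I enzymes 5 fell and 1 rose, and of 9 class II enzymes 3 fell and 2 rose, per the authors' deposited table, with EPRS1, which holds a domain of each class, counted in neither. The medians were -0.70 for class I and -0.26 for class II per the authors' deposited table, and -0.51 and 0.026 with the trend removed. No difference between these groups was tested.

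**Figure D4:**
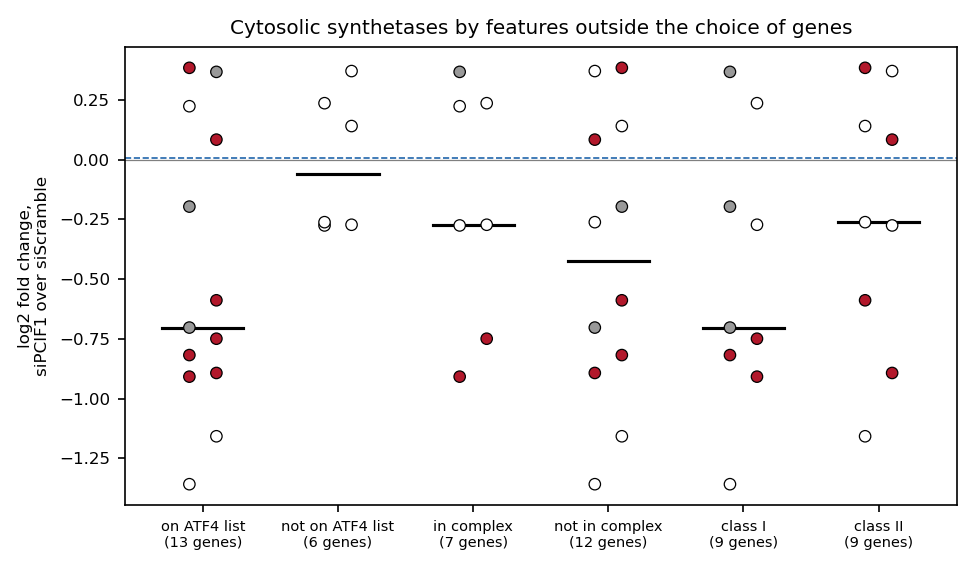
Log2 fold change (siPCIF1 over siScramble) of the cytosolic enzymes per the authors' deposited table, grouped by the ATF4 list, by the multisynthetase complex and by class. Red points have a TGATGNAAN match in a promoter window, white points have none and grey points have no window; black lines are medians and the dashed line is the median of all genes. The enzymes outside the ATF4 list have a median of -0.061, against -0.70 for those on it. That list was made with earlier results of these data known, so the contrast is not independent evidence.

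Promoter windows of RefSeq, 250 bases before to 50 after a start on GRCh38.p14, were found for 33 of the 38 members and searched for TGATGNAAN, the core of the element bound by ATF4 with C/EBP proteins. The table has no entry for LARS1, VARS1, YARS1, AARS2 and VARS2. On either strand, 7 of 16 cytosolic enzymes held a match (43.8%), 1 of 14 mitochondrial enzymes (7.14%) and 0 of 3 scaffold genes. Of 9849 genes of the authors' deposited table with a window, 268 (2.72%) held one. The 8 sites are printed because they are the letters behind these counts, with the match in capitals, 10 bases on each side and each read 5′ to 3′ on the strand that holds TGATGNAAN.
AARS1, chr16:70289676-70289704, plus strand: ctaacttggcTGATGCAACtgcgagaaaa
CARS1, chr11:3057408-3057436, plus strand: tcctagaatcTGATGCAACcgccgccccg
GARS1, chr7:30594834-30594862, minus strand: gctcggagcaTGATGAAATcgccgcgtaa
IARS1, chr9:92293693-92293721, plus strand: cgcacggaggTGATGCAACgcgctgaaaa
MARS1, chr12:57488053-57488081, minus strand: aatccctcgcTGATGCAACcggaaccggc
NARS1, chr18:57621804-57621832, minus strand: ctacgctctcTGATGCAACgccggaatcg
TARS1, chr5:33440956-33440984, minus strand: ctggaccagcTGATGCAATcgaaaggcgc
YARS2, chr12:32756076-32756104, minus strand: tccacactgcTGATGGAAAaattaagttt

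In 6 of the 7 cytosolic sites the element reads TGATGCAA, and in GARS1 TGATGAAA. The match lies on the strand opposite to the gene in AARS1, CARS1, GARS1, IARS1, MARS1 and TARS1, and on the gene's own strand in NARS1 and YARS2. Counted from the RefSeq start, with 1 as the first transcribed base, the match covers 2 to 10 in TARS1, -3 to 6 in CARS1, -5 to 4 in MARS1 and -14 to -6 in IARS1. It covers -34 to -26 in GARS1, 15 to 23 in NARS1, -188 to -180 in AARS1 and -197 to -189 in YARS2. Of the 7 cytosolic genes with a match, 5 fell (AARS1, CARS1, GARS1, IARS1 and MARS1), TARS1 rose and NARS1 did not pass per the authors' deposited table, with a median of -0.75. Of the 9 cytosolic genes with a window and no match, 2 fell, namely WARS1 and SARS1, which have the largest decreases, and 1 rose per the authors' deposited table, with a median of -0.26. Among all 268 genes with a match 62 fell and 54 rose per the authors' deposited table, with a median of 0.037. Of the 9581 genes with a window and no match 1748 fell and 1611 rose per the authors' deposited table, with a median of -0.0035. A match is a description of letters in this window and shows no binding.

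Because m6Am forms on transcripts that start with A, the annotated first base of each member was read. It could not be settled, as the GENCODE main transcript and the RefSeq windows gave a different call of A or other for 17 of the 33 members with a window. Counts by first base are therefore not reported.

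Other genes that make, edit or carry charged tRNA were counted against the 17.7% of all genes that fell and the 16.3% that rose. Of 9 measured genes for further steps of aminoacyl-tRNA synthesis and editing, 1 fell and 2 rose per the authors' deposited table by DESeq2, with a median of 0.045. DTD1, a deacylase that clears wrongly charged tRNA, was at -0.65 (SE 0.14), and its relative DTD2 at 0.74 (SE 0.17) per the authors' deposited table. GATC, a subunit of the mitochondrial amidotransferase that makes glutaminyl-tRNA, was at 0.46 (SE 0.15) per the authors' deposited table, and at 0.37 with the trend removed, where it did not pass. Of 7 elongation factors that carry or load charged tRNA, 2 fell and 0 rose per the authors' deposited table by DESeq2, EEF1D at -0.80 (SE 0.15) and EEF1A2 at -0.41 (SE 0.14). None of these 7 passed once the trend was removed, which left EEF1D at -0.37 and turned EEF1A2 to 0.12.

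Among 22 genes of tRNA processing and export, 5 fell and 4 rose per the authors' deposited table by DESeq2, with a median of -0.036, against 17.7 and 16.3% of all genes. XPOT, the nuclear export receptor for tRNA, was at -0.63 (SE 0.13; DESeq2 adjusted p = 2.05e-05) per the authors' deposited table. SSB, which encodes the La protein that binds the ends of new tRNA, was at 0.97 (SE 0.20) per the authors' deposited table. The helicase DDX1 and its partner in the tRNA ligase complex, the ligase RTCB, were at 0.74 (SE 0.16) and -0.35 (SE 0.12) per the authors' deposited table. TSEN34, a subunit of the tRNA splicing endonuclease, was at -0.76 (SE 0.19) per the authors' deposited table. The RNase P subunits POP1, POP4 and POP7 were at 0.63 (SE 0.15), -0.46 (SE 0.16) and -0.53 (SE 0.16) per the authors' deposited table. Once the trend was removed, 3 of the 22 passed as lower and 3 as higher, and POP7, at -0.15, and RTCB, at -0.23, no longer passed.

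Several members share bases with other genes of the table. WARS1 overlaps WDR25, YARS1 overlaps S100PBP and GARS1 overlaps a divergent transcript, each on the opposite strand and by 129 to 1387 bases. WDR25 was at -0.41 (SE 0.16), S100PBP at -0.27 (SE 0.16) and the divergent transcript GARS-DT at 0.44 (SE 0.16) per the authors' deposited table. YARS2 lies opposite DNM1L over 18161 bases, and DNM1L rose by 1.06 (SE 0.15) per the authors' deposited table. The part of these overlaps in the members' values was not tested.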

How the data were processed

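RNA of 6 samples was made into poly(A)-selected, stranded libraries, per the labels' protocols. The submitters' processing notes list, with no roles, the authors' tools DESeq2, HTSeq, STAR 2.7.10a, cutadapt 3.7, bcl2fastq 2.20 and deepTools and the build hg38. Annotation and strand setting were not stated in the sources used here. One deposited table was used. Its first column is the authors' mean of DESeq2 normalised counts, a signal that is never negative. The log2 fold change and its SE were deposited by the authors on the log2 scale. The authors' Wald statistic is a score. The authors' p-value and adjusted p-value equalled a normal tail and a Benjamini-Hochberg adjustment over all 13885 genes. Depth per library is unknown. The deposited SE, from 0.119 to 0.295, gives the precision.

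The fold changes appear shrunken towards 0. Under a normal prior with an SD of 0.59, read from the largest SE, the members' unshrunken values were estimated at 1.05 to 1.39 times those deposited, with a median of 1.08.

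Symbols, coordinates and main transcripts came from GENCODE 29 on GRCh38, matched for 13877 of 13885 identifiers without versions. The trend was a linear fit of the fold change on GC content, log2 length and log2 mean over those genes, and adjusted p-values were recomputed over all of them. Intervals are 95% normal intervals from the SE. Shared sequence was searched with 50-base words. Of 45 promoter windows of the members, the transcribed part of 42 was found in a GENCODE transcript of the gene in the same orientation. The comparison of FARSA with FARSB and of AIMP1 with AIMP2 was added after their values were seen. Steps were tested on simulated data. All members are named. Of the other lists, up to 4 genes by smallest adjusted p and those of the rarer direction were eligible for naming, and POP4, POP7, TSEN34, RTCB and VLDLR were named after their values were seen. The members, lists and tests were chosen with earlier results of these data known. Tables were computed in Python 3.11.15 with pandas 2.3.3, scipy 1.17.1 and numpy 2.4.6, and drawn with matplotlib 3.10.9.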

Additional observations from a re-analysis of the deposited data

How the results depend on the processing

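No paired analysis was possible because the table holds 1 comparison and no values per sample, and for the same reason no replicate could be left out. The count of cytosolic enzymes called lower, 8, was 6 to 9 in the alternatives other than statistics scaled to their robust SD, where it was 1. The count of cytosolic enzymes called higher, 3, was 0 at an adjusted p of 0.01, against an absolute change of 0.3 and with scaled statistics, and 1 (HARS1) with the trend removed. The mitochondrial count called lower, 1, was 0 at 0.01, against 0.3, with the trend removed and with scaled statistics, and 2 at an adjusted p of 0.10, when restricted to means of 100 or more, and after centring. The mitochondrial count called higher, 1, was 0 against 0.3 and with scaled statistics. Of the scaffold genes, the 1 called lower and the 1 called higher both became 0 against 0.3 and with scaled statistics, and the one called higher also with the trend removed. The median of the cytosolic enzymes minus that of the mitochondrial ones was -0.21 and moved to -0.032 with the trend removed. Signs of values that had not passed turned with the trend removed for FARSA (0.086), VARS1 (0.13), AARS2 (0.18), CARS2 (0.065), NARS2 (-0.058), RARS2 (-0.010) and EEF1E1 (-0.022), and for the differences FARSA minus FARS2 (0.16), LARS1 minus LARS2 (-0.0027) and TARS1 minus TARS2 (-0.071). The cause was not tested. Depth per library is unknown, and the SEs of the members reached 0.27.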

Other observations

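Genes that transcribe and modify tRNA were counted in the same way as the synthetases. Of 20 measured genes of RNA polymerase III, which transcribes tRNA genes, its factors TFIIIB and TFIIIC and its repressor MAF1, 6 rose and 3 fell per the authors' deposited table by DESeq2, with a median of 0.31. Among all genes 16.3% rose and 17.7% fell. The repressor MAF1 fell by 0.79 (SE 0.15; DESeq2 adjusted p = 2.67e-06) per the authors' deposited table. The TFIIIC subunit GTF3C6 was at 0.72 (SE 0.16), the polymerase subunit POLR3K at 0.79 (SE 0.19) and the TFIIIB subunit BDP1 at 0.81 (SE 0.21) per the authors' deposited table. POLR3C and GTF3C5, the other members that fell, were at -0.36 (SE 0.14) and -0.35 (SE 0.14) per the authors' deposited table. With the trend removed, 5 passed as higher and 1, MAF1 at -0.42, as lower, while BDP1 at 0.45, POLR3C and GTF3C5 did not pass. Of all genes 12.4% then passed as higher and 12.8% as lower.

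Of 40 measured tRNA modification enzymes, 5 rose and 3 fell per the authors' deposited table by DESeq2, with a median of 0.060. PUS7, a pseudouridine synthase, was at 0.85 (SE 0.16) and TRMT10C, a subunit of mitochondrial RNase P, at 0.94 (SE 0.21) per the authors' deposited table. FTSJ1, which methylates the anticodon loop, was at -0.72 (SE 0.16), TRMU, which thiolates mitochondrial tRNA, at -0.47 (SE 0.15) and the methylthiotransferase CDKAL1 at -0.35 (SE 0.14) per the authors' deposited table. Once the trend was removed, 5 of the 40 passed as higher and 2 as lower, and TRMU, at -0.24, did not pass. Of all genes, 16.3% rose and 17.7% fell, or 34.0% in either direction. With the trend removed, 12.4% passed as higher and 12.8% as lower.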
